A study of Mus musculus with 8 samples.

Results

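The genes described here mark mature B cells and, apart from Fcrla, whose protein stays inside the cell, encode surface proteins. They were followed in the stromal vascular fraction (SVF) of gonadal WAT after BAFF neutralization. The 10 members (Ms4a1, Cr2, Fcer2a, Fcrla, Fcmr, Cd37, Cd72, Cd55, Cd83 and Cd40) were taken by gene name from the deposited count table of 54532 genes, and all 10 were among the 15963 genes that passed the filter on low counts. The SVF, which holds the immune, stromal and vascular cells of collagenase-digested fat without the adipocytes, came from male C57BL/6J mice that were 6 weeks old when the diet began according to the labels. Both groups ate an HFD (60% of its calories as fat) for 12 weeks and changed to a NCD (16% of its calories as fat). Over the next 6 weeks, ending at week 18, the antibody was injected at 2 mg/kg at intervals of 2 weeks, either anti-BAFF Ab (clone Sandy-2) or isotype-matched control Ab, with 4 mice in each group (control Ab mice 1, 2, 6 and 9, and anti-BAFF Ab mice 5, 7, 8 and 10) and 1 RNA library per mouse. The comparison asks how BAFF neutralization altered the RNA of these B cell genes in the SVF.

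BAFF is a cytokine of the TNF family that binds the BAFF receptor on B cells and keeps follicular and marginal zone B cells alive once they leave the transitional stage. CD21 and CD23 appear on B cells as they mature through that stage, whereas B-1 cells carry little CD23 and depend less on BAFF. Several other surface proteins of mature B cells, among them CD37, CD55, CD83 and CD40, are also made by myeloid, dendritic or stromal cells, so their RNA in a mixed fraction need not come from B cells.

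The libraries held between 13562340 and 18548024 counts, and 3 counts, taken as the lowest level that this depth can show, corresponded to at most 0.219 CPM (counts per 1000000 of the TMM-adjusted library total). Such limits cover counting error only. Markers of the cells that make up the SVF were abundant in every mouse: the summed level of 8 macrophage genes was 4919 to 6374 CPM and that of 7 adipocyte progenitor genes was 6121 to 8141 CPM, whereas that of 10 pan-B genes was 137 to 190 CPM. Most of the last sum came from Blnk, which macrophages also express, at 94.7 CPM in the control Ab group and 105 CPM in the anti-BAFF Ab group, and the other pan-B genes were each at 17.5 CPM or less on average. Some libraries stood apart. Epididymis genes summed to 1401 CPM in control Ab mouse 2 and 1663 CPM in anti-BAFF Ab mouse 7. Control Ab mouse 6 (814 CPM) and anti-BAFF Ab mouse 5 (757 CPM) were also high. The sums were 9.92 and 122 CPM in control Ab mice 1 and 9, and 140 and 59.1 CPM in anti-BAFF Ab mice 8 and 10. Neutrophil genes summed to 279 CPM in anti-BAFF Ab mouse 5, against 56.6 to 89.1 CPM in the other 7 mice. Results are therefore also given with each mouse left out in turn, and without mice 2 and 7 together.

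The members separated into 2 sets of 5. Ms4a1, Cr2, Fcer2a, Fcrla and Fcmr were lower in every anti-BAFF Ab-treated mouse than in any control Ab-treated mouse, with fitted decreases of 2.10- to 7.63-fold between the groups, whereas the groups overlapped for Cd37, Cd72, Cd55, Cd83 and Cd40, whose log2 fold changes lay between -0.01 and 0.11. Non-overlap with lower values after anti-BAFF Ab was found for 0.952% of all genes tested. With edgeR's quasi-likelihood test, 0 of the 10 members passed an adjusted p of 0.05, a level reached with lower values by 0.0564% of genes tested, and 5 were lower at an unadjusted p of 0.05, against 1.24% of genes tested. None of the 10 was higher at an unadjusted p of 0.05 (0.664% of genes tested). DESeq2, used as an alternative, called the same 5 lower at an adjusted p of 0.05, against 0.253% of the genes it tested. Cr2 and Fcer2a passed the filter through the control Ab group (0 and 1 anti-BAFF Ab-treated mice reached 10 counts), while the other 3 (Ms4a1, Fcrla and Fcmr) had at least 10 counts in all 8 mice. The counts of 5 include Cr2 and Fcer2a, for which they are a description only. With at least 10 counts required in every mouse, 3 members were lower at an unadjusted p of 0.05 with edgeR and 0 at an adjusted p of 0.05. The median log2 fold change was -0.54 over the members and 0.00 over all genes tested. No member lay near that median, which falls between Fcrla (-1.07) and Cd37 (-0.01). The division into these sets was seen in the values and was not tested. In bulk RNA, fewer B cells and less RNA per cell cannot be told apart.

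**Figure D1:**
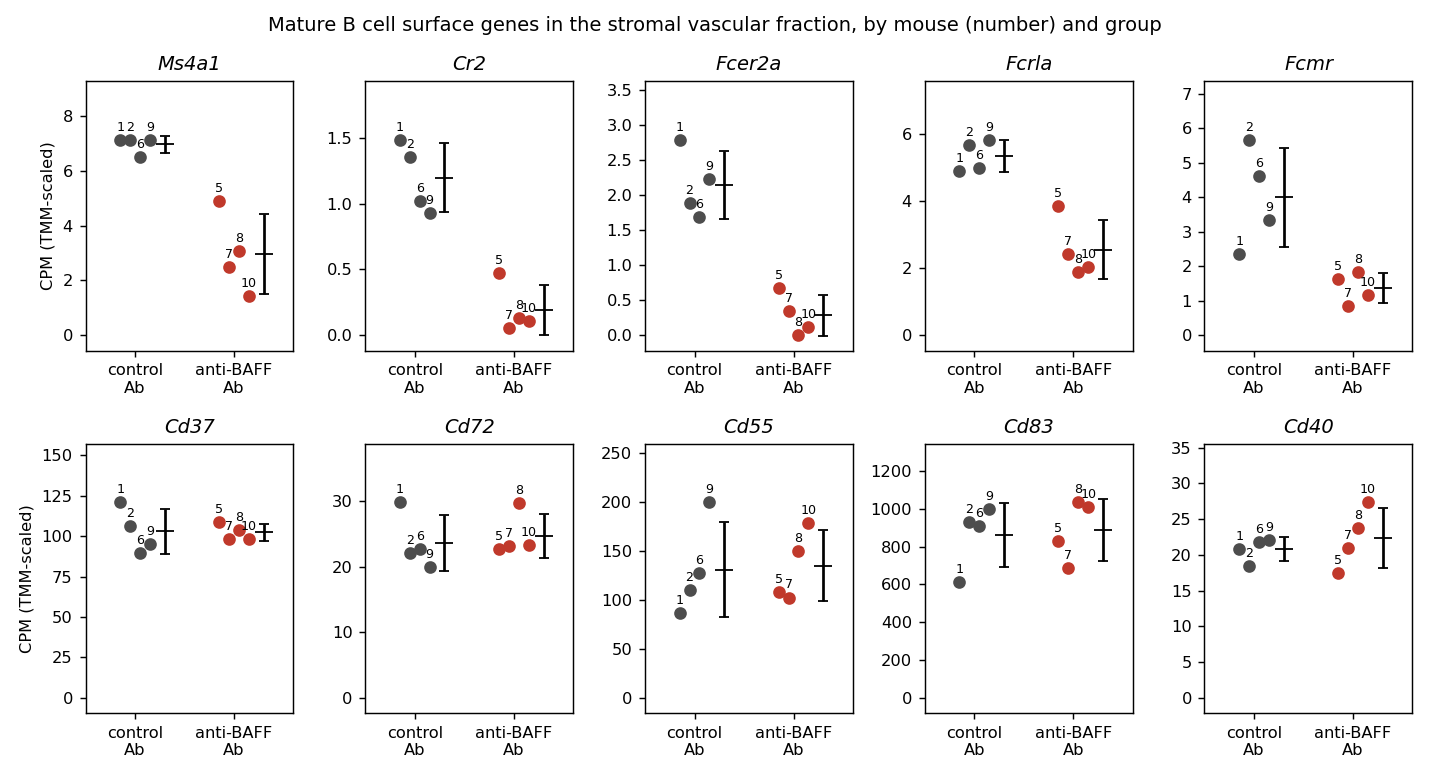
Level of each of the 10 genes in CPM (linear axis) in each mouse, with mouse numbers above the points. The bars beside the points are the mean and SD of 4 mice. In the upper row the anti-BAFF Ab-treated mice all lie below the control Ab-treated mice, and in the lower row the groups overlap.

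In the control Ab-treated mice, the order of the levels per length of transcript (FPKM, computed from the deposited counts and gene lengths) ran from Cd83 at 335 ± 66.2 FPKM (SD, n = 4) down to Cr2 at 0.148 ± 0.0329 FPKM. Cd37 followed Cd83 at 29.2 ± 3.90 FPKM and could not be separated from Cd55 at 26.9 ± 10.03 FPKM, since their ranges over mice overlapped. Cd72 at 6.91 ± 1.25 FPKM and Cd40 at 6.11 ± 0.480 FPKM also overlapped, as did Fcrla at 3.06 ± 0.271 FPKM and Fcmr at 2.30 ± 0.835 FPKM. Ms4a1 at 1.13 ± 0.0506 FPKM, Fcer2a at 0.695 ± 0.157 FPKM and Cr2 were each below the whole range of the gene above them. The 5 genes that were lower after anti-BAFF Ab thus held the 5 lowest levels per length in the control Ab-treated mice.

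Sequence upstream of the start was printed for 4 of the genes that were lower, those with an entry in the RefSeq promoter table (GRCm38.p6), since the comparison turns on them. All stretches are the 250 bases before the start in that table, read 5′ to 3′ along the gene's strand, with matches to the motifs named after them in capitals. The starts differ from the deposited coordinates for some genes. Fcmr as deposited begins at 130865669, within its stretch and before its marked match. The stretch of the second start of Fcer2a lies within the deposited gene. Cr2 lies at chr1:195176720-195176969 (minus strand), the first and second starts of Fcer2a at chr8:3694175-3694424 and chr8:3690862-3691111 (minus strand), Fcrla at chr1:170927584-170927833 (minus strand) and Fcmr at chr1:130865527-130865776 (plus strand).
Cr2: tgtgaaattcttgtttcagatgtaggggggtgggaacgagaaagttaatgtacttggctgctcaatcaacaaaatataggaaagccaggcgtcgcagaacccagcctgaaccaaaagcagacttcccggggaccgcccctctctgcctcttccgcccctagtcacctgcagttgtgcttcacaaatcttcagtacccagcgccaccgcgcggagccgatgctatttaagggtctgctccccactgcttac
Fcer2a, first start: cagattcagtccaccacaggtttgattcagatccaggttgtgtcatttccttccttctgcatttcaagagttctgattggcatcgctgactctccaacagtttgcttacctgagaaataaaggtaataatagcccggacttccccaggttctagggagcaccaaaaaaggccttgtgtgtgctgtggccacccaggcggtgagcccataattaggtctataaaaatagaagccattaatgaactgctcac
Fcer2a, second start: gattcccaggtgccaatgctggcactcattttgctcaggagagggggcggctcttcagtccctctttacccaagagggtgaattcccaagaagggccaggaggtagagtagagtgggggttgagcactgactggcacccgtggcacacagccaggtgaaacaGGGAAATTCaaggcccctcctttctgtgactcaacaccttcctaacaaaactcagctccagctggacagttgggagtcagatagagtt
Fcrla: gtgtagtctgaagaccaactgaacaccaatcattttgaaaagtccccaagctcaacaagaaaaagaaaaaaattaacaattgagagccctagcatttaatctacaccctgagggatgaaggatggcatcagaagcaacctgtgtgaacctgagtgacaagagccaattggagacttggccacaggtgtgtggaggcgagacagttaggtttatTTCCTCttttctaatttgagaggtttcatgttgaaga
Fcmr: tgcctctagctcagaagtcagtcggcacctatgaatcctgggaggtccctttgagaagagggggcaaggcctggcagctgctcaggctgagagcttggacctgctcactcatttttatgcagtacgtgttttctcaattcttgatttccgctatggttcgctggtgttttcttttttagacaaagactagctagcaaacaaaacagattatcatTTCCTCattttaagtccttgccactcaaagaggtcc

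Of the 10 members, 7 had an entry in that table, with 9 windows in all, since Fcer2a had 3. Each window, running from 250 bases before to 50 bases after a start, was searched on both strands for 4 motifs that B cell transcription factors are known to bind. These were the octamer ATGCAAAT of OCT factors, the core CCCNNGGG of EBF1, the core GAGGAA of ETS factors such as PU.1, and GGGANNTTC, part of a site for NF-kappaB. They occurred in 1.74%, 13.7%, 28.3% and 3.94% of the 32851 promoters in the table, respectively. Fcrla and Fcmr each held 1 match to the ETS core, 37 and 36 bases before the start, in both cases on the opposite strand. Among the genes whose groups overlapped, Cd72 held 1 such match and Cd37 held 2, so this match was not particular to the genes that were lower. The matches of Fcmr and Cd37 lie inside those genes as deposited. The second start of Fcer2a held the NF-kappaB part 88 bases upstream, and Cd55 held the EBF core 105 bases upstream. The windows of Cr2 and of the other starts of Fcer2a held none of these letters.

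Ms4a1 encodes CD20, a membrane protein found on B cells from the pre-B stage until they become plasma cells and the target of rituximab. It lies on chromosome 19 from 11249675 to 11266241 in the deposited coordinates (mm10). Ms4a1 was measured at 7.13, 7.15, 6.51 and 7.12 CPM in control Ab mice 1, 2, 6 and 9, and at 4.91, 2.48, 3.07 and 1.43 CPM in anti-BAFF Ab mice 5, 7, 8 and 10. The control Ab-treated mice were nearly alike, while the anti-BAFF Ab-treated mice were spread out, all of them below every control. The means were 6.98 ± 0.313 and 2.97 ± 1.46 CPM (SD, n = 4), a log2 fold change of -1.24 (SE 0.32, 95% interval -1.95 to -0.52). Its unadjusted p was 0.00355 and its adjusted p 0.995 with edgeR, and its adjusted p was 0.0438 with DESeq2. Of 15 further genes of the Ms4a family, most of which are expressed in myeloid or other cells, 10 were tested and 0 were lower or higher at an unadjusted p of 0.05, with log2 fold changes between -0.32 and 0.36. Ms4a2, a chain of the high-affinity IgE receptor of mast cells, had the smallest p of these, at 3.48 ± 1.34 CPM with control Ab and 4.47 ± 1.25 CPM with anti-BAFF Ab.

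Cr2 encodes the complement receptor CD21, which binds C3d-coated antigen and, with CD81, is part of the coreceptor that lowers the threshold of B cell activation. In mice the same gene also gives rise to CD35. It lies on chromosome 1 from 195136811 to 195176716. Counts for Cr2 were 24, 23, 14 and 15 in the control Ab-treated mice and 7, 1, 2 and 2 in the anti-BAFF Ab group, corresponding to 1.49, 1.36, 1.02 and 0.929 CPM against 0.471, 0.0563, 0.131 and 0.110 CPM. All values of the anti-BAFF Ab group were under all values of the control Ab group, and 3 of them were under the limit of 3 counts. Cr2 passed the filter on low counts only through the control Ab-treated mice, so its place among the genes tested depended on the level in that group. The p-values of Cr2 are therefore given as a description. Its log2 fold change was -2.65 (SE 0.52, 95% interval -3.83 to -1.48), with an unadjusted p of 0.00062 and an adjusted p of 0.319 with edgeR, and an adjusted p of 0.0144 with DESeq2. Over the summed counts of 76 and 12, the rate was 6.66-fold higher in the control Ab group (95% exact counting interval 3.60 to 13.4). This interval covers counting error only and leaves out the spread between mice. Without mouse 5 the fold was 11.6 in place of 6.29.

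Cd81, the tetraspanin partner that most cells express, had a log2 fold change of -0.09 (95% interval -0.30 to 0.12), and C3, the source of the ligand, one of -0.19 (95% interval -0.54 to 0.16). Both were within the spread of the groups.

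Fcer2a encodes CD23, the low-affinity receptor for IgE, which is carried by follicular B cells. It lies on chromosome 8 from 3681737 to 3694175. Counts for Fcer2a were 45, 32, 23 and 36 in the control Ab-treated mice and 10, 6, 0 and 2 in the anti-BAFF Ab-treated mice, or 2.79, 1.89, 1.68 and 2.23 CPM against 0.673, 0.338, 0 and 0.110 CPM. No value overlapped, and the absence of counts in mouse 8 allowed a level of up to 0.196 CPM. Only 1 anti-BAFF Ab-treated mouse reached 10 counts, so that Fcer2a, like Cr2, passed the filter through the control Ab group. The p-values of Fcer2a are likewise given as a description. Its log2 fold change of -2.93 (SE 0.63, 95% interval -4.36 to -1.50) had the largest size among the members, but its interval overlapped those of Cr2, Fcmr, Ms4a1 and Fcrla. The edgeR unadjusted p was 0.0012 and the adjusted p 0.537, and the DESeq2 adjusted p was 0.00117. The rate over the summed counts of 136 and 18 was 7.94-fold higher in the control Ab group (95% exact counting interval 4.84 to 13.8). Here too the interval leaves out the spread between mice. Without mouse 5 the fitted fold was 13.5 in place of 7.63. Adam10, the protease that cleaves CD23 from the surface, was at 149 ± 21.5 and 153 ± 6.26 CPM in the control Ab and anti-BAFF Ab groups. Ighe, the heavy chain of its ligand, had too few counts to be tested.

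Fcrla encodes a relative of the Fc receptors that is kept inside the B cell rather than on its surface. It lies on chromosome 1 from 170917576 to 170927583. Fcrla was at 4.90, 5.67, 4.97 and 5.82 CPM in the control Ab-treated mice and at 3.84, 2.42, 1.89 and 2.04 CPM in those given anti-BAFF Ab. The groups did not overlap, and mouse 5 came closest to the controls. The means were 5.34 ± 0.473 and 2.55 ± 0.888 CPM, a log2 fold change of -1.07 (SE 0.24, 95% interval -1.62 to -0.52, edgeR unadjusted p = 0.00165, adjusted p = 0.626, DESeq2 adjusted p = 0.0181). The processed pseudogene Gm2962 lies within Fcrla on the same strand with 12 to 28 counts per mouse, and how reads of the overlap were assigned was not stated, which leaves the level of Fcrla uncertain.

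Fcmr encodes the receptor for the Fc part of IgM. It lies on chromosome 1 from 130865669 to 130880791. Fcmr was at 2.36, 5.67, 4.61 and 3.35 CPM in the control Ab-treated mice and at 1.62, 0.845, 1.83 and 1.16 CPM in those given anti-BAFF Ab. The control values ranged widely, and the lowest of them lay just above the highest value of the anti-BAFF Ab group. The means were 3.996 ± 1.45 and 1.36 ± 0.443 CPM, a log2 fold change of -1.56 (SE 0.34, 95% interval -2.33 to -0.78, edgeR unadjusted p = 0.00134, adjusted p = 0.577, DESeq2 adjusted p = 0.0138). Its ligand's heavy chain, Ighm, fell from 1400 ± 293 to 273 ± 110 CPM, a log2 fold change of -2.36 (SE 0.30) that passed the adjusted test of edgeR (adjusted p = 0.0448), and it was the 1 gene among 17 tested partners and ligands to do so.

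Within the anti-BAFF Ab group, mouse 5 had the highest level of Ms4a1, Cr2, Fcer2a and Fcrla and ranked 2 for Fcmr. This is the mouse with the high neutrophil genes, and the part of that in these values was not tested. When any 1 mouse was left out, the log2 fold changes stayed between -1.603 and -1.003 for Ms4a1, between -3.53 and -2.35 for Cr2, between -3.75 and -2.55 for Fcer2a, between -1.35 and -0.96 for Fcrla and between -1.76 and -1.33 for Fcmr. Without mice 2 and 7, which had the most epididymis RNA, the log2 fold changes were -1.17 for Ms4a1, -2.29 for Cr2, -3.12 for Fcer2a, -1.04 for Fcrla and -1.18 for Fcmr. The same number of members (5) was lower at an unadjusted p of 0.05 with edgeR. This count includes Cr2 and Fcer2a, for which it is a description only, and no share of all genes tested is given beside it. Overlap could not be tested in this way, since leaving out mice cannot make separate groups overlap. The labels gave no library or sequencing batch.

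**Figure D2:**
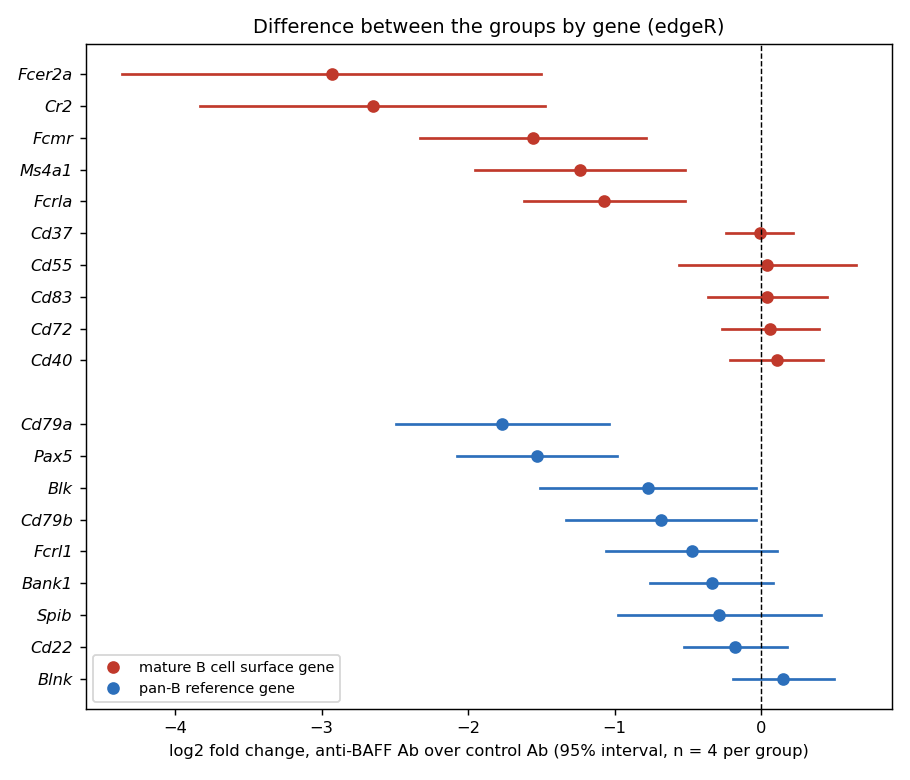
Log2 fold change (anti-BAFF Ab over control Ab, edgeR, n = 4 mice per group) with its unadjusted 95% interval for the 10 mature B cell surface genes (red) and 9 of the pan-B reference genes (blue). The intervals of Fcer2a, Cr2, Fcmr, Ms4a1 and Fcrla lie below 0, those of Cd37, Cd55, Cd83, Cd72 and Cd40 span 0, and the reference genes extend from -1.77 for Cd79a to 0.15 for Blnk.

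Cd37 encodes a tetraspanin of leukocyte membranes. It was at 121, 106, 89.8 and 95.2 CPM in the control Ab-treated mice and at 109, 98.1, 104 and 98.4 CPM in the anti-BAFF Ab-treated mice, and each anti-BAFF Ab value lay within the range of the controls. The log2 fold change was -0.01 (95% interval -0.24 to 0.22, edgeR unadjusted p = 0.927), so a decrease of more than 15.2% lay outside the interval. Among 14 tetraspanins listed, 0 were lower or higher at an unadjusted p of 0.05. Tead2 overlaps Cd37 on the opposite strand with 66 to 112 counts per mouse, and whether counting used the strand is not given in the sources used here.

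Cd72 encodes a C-type lectin that inhibits signalling through the B cell receptor and binds the semaphorin CD100. It was at 29.8, 22.1, 22.8 and 19.9 CPM in the control Ab-treated mice and at 22.7, 23.2, 29.8 and 23.3 CPM in the anti-BAFF Ab-treated mice, so that 1 mouse of each group stood above the rest. The log2 fold change was 0.06 (95% interval -0.27 to 0.39, edgeR unadjusted p = 0.675). Tesk1 overlaps Cd72 on the opposite strand with 464 to 698 counts per mouse, more than the 311 to 481 counts of Cd72, and without strand the reads of the overlap cannot be told apart. Sema4d, which encodes CD100, had a log2 fold change of 0.15 (95% interval -0.28 to 0.58).

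Cd40 encodes the TNF receptor family member through which T cell help reaches B cells, and dendritic cells and macrophages carry it as well. It was at 20.8, 18.5, 21.8 and 22.1 CPM in the control Ab-treated mice and at 17.5, 20.9, 23.8 and 27.4 CPM in those given anti-BAFF Ab. The values of the anti-BAFF Ab group reached below and above those of the controls, with a log2 fold change of 0.11 (95% interval -0.21 to 0.42, edgeR unadjusted p = 0.466). Its ligand Cd40lg, made by activated T cells, had a log2 fold change of -1.15 with a wide 95% interval of -2.69 to 0.39 and did not pass the test. The adaptors Traf1, Traf2, Traf3, Traf5 and Traf6 lay between -0.10 and 0.07.

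Cd83 encodes an immunoglobulin family protein of activated B cells and mature dendritic cells, and Cd55 encodes decay-accelerating factor, which protects cells from complement and binds CD97. Cd83 was at 614, 929, 909 and 999 CPM in the control Ab-treated mice and at 827, 687, 1034 and 1009 CPM in the anti-BAFF Ab-treated mice. Cd55 was at 86.6, 110, 127 and 199 CPM and at 108, 102, 150 and 179 CPM in the same mice. The spread within a group exceeded the difference between groups for both, with log2 fold changes of 0.04 (95% interval -0.37 to 0.45, edgeR unadjusted p = 0.815) for Cd83 and 0.04 (95% interval -0.56 to 0.65, edgeR unadjusted p = 0.878) for Cd55. Control Ab mouse 1 and anti-BAFF Ab mouse 7 were the lowest for both genes, and mice 8, 9 and 10 the highest. The summed level of 7 adipocyte progenitor genes followed the same division, at 6121 and 6330 CPM in mice 1 and 7 and 7954 to 8141 CPM in mice 8, 9 and 10. Dcn had the highest mean of these genes, at 3640 CPM in the control Ab group. Col1a1 (2543 CPM in mouse 1, 1601 CPM in mouse 9) and Col15a1 (710 and 454 CPM) went against this division. The other genes of the list were lower in mice 1 and 7 than in mice 8, 9 and 10. This division was not particular to progenitor genes. Endothelial genes summed to 567 and 641 CPM in mice 1 and 7 and 924 to 988 CPM in mice 8, 9 and 10. Mouse 6 was higher still, at 1037 CPM. Mesothelial genes summed to 245 and 387 CPM in mice 1 and 7 and 494 to 718 CPM in mice 8, 9 and 10. For these, mice 2 and 6 lay in the same range, at 638 and 535 CPM. Any part of progenitor or other cell content in the levels of Cd83 and Cd55 was not tested. The CD97 gene Adgre5 had a log2 fold change of 0.01, and of 6 complement regulators tested, 0 were lower or higher at an unadjusted p of 0.05, with Cr1l at 85.4 ± 4.29 and 86.3 ± 3.98 CPM.

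Other cells that carry Cd37, Cd72, Cd55, Cd83 or Cd40 were followed by their own markers. None of 8 dendritic cell genes, 8 macrophage genes, 7 adipocyte progenitor genes, 6 mesothelial genes or 8 T cell genes was lower or higher at an unadjusted p of 0.05. Dendritic cell genes summed to 691 to 897 CPM in the control Ab group and 715 to 755 CPM in the anti-BAFF Ab group, and macrophage genes to 5424 to 6254 CPM and 4919 to 6374 CPM. Of 6 neutrophil genes tested, 1 was higher at an unadjusted p of 0.05 (S100a9, log2 fold change 2.59, SE 1.09, edgeR unadjusted p = 0.0413). The median was 1.34, with log2 fold changes from -1.47 to 2.59 and the highest sum in mouse 5. S100a9 was at 42.3 CPM in mouse 5 and at 1.29 to 3.78 CPM in the rest of the anti-BAFF Ab group. It was at 1.18 to 4.34 CPM in the control Ab group, so its difference rested on mouse 5. The share of these 5 RNAs that came from B cells was not tested.

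Pan-B genes, which mark B cells at most stages, were not uniform either. Of 10, 0 passed an adjusted p of 0.05 and 5 were lower at an unadjusted p of 0.05 with edgeR, 3 were lower with DESeq2, and the median log2 fold change was -0.58. Cd79a, a signalling chain of the B cell receptor, had -1.77 (SE 0.32, edgeR unadjusted p = 0.000375, adjusted p = 0.231), and Pax5, the transcription factor that maintains B cell identity, had -1.53 (SE 0.24, edgeR unadjusted p = 0.000127, adjusted p = 0.145). Blnk, the adaptor that made up most of the summed level, had 0.15 (SE 0.15). Of 13 further genes of mature B-2 cells, 5 were lower at an unadjusted p of 0.05 and the median log2 fold change was -0.13. Mean levels among the 13 reached 114 CPM in the control Ab group, against 6.98 CPM for Ms4a1, so this median need not reflect B cells. The IgD heavy chain Ighd had -1.79 (SE 0.44, edgeR unadjusted p = 0.00258, adjusted p = 0.858, DESeq2 adjusted p = 0.0138) while H2-DMb2, a chain of H2-M that helps load MHC class II, had -0.64 (SE 0.19, edgeR unadjusted p = 0.00787) and Cxcr5, the chemokine receptor for B cell follicles, -1.04 (SE 0.36, edgeR unadjusted p = 0.017). Neither passed an adjusted p of 0.05. Tnfrsf13c, the BAFF receptor, had -0.93 (SE 0.35, edgeR unadjusted p = 0.0253). Of 7 genes of B-1 and innate-like B cells, 0 were lower or higher at an unadjusted p of 0.05, with a median of 0.02. Their log2 fold changes ran from -0.49 to 0.21. The smallest p-values were those of Cd5 (-0.45, SE 0.23, edgeR unadjusted p = 0.0847) and Fcrl5 (-0.49, SE 0.34, edgeR unadjusted p = 0.178). Several genes of this list, such as Cd9 at 251 ± 36.1 and 265 ± 16.9 CPM, are also expressed by other cells of the SVF. The list therefore does not show whether the RNA of B-1 cells changed.

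The level of each member relative to B cell reference genes was computed per mouse as its log2 CPM minus the mean log2 CPM of the reference. Relative to the 10 pan-B genes, Ms4a1 differed by -0.59 between the anti-BAFF Ab and control Ab groups (two-sided exact permutation test, unadjusted p = 0.0286, the smallest that 4 against 4 mice allow). Fcmr differed by -0.72 (exact p = 0.0571) and Fcrla by -0.35 (exact p = 0.0857). Cd37, Cd72, Cd55, Cd83 and Cd40 differed by 0.73 to 0.83, with an exact p of 0.0286 for Cd37 and 0.0571 to 0.0857 for the others. Before this step, the log2 fold changes of these genes lay between -0.01 and 0.11. Their relative differences and p-values thus follow the lower mean of the reference and show no rise of these RNAs. None of the exact p-values was adjusted over the 10 genes. For Fcer2a and Cr2, which entered the genes tested through the control Ab group, the values are given as a description with no test. They differed by -2.06 and -1.47 with a prior count of 2 added before the log2 and by -2.79 and -2.01 with a prior count of 0.5, so the size of the difference was set in part by the prior.

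This measure depended on the reference. With Cd79a and Cd79b as reference, Ms4a1 (-0.05, exact p = 0.8286) and Fcmr (-0.18, exact p = 0.486) were close to 0 and Fcrla turned to 0.19 (exact p = 0.514), and Fcer2a and Cr2 were at -1.52 and -0.93. With Cd79a and Pax5, a reference chosen after the values were seen, Ms4a1 (0.36), Fcrla (0.60) and Fcmr (0.22) were above 0 with an exact p of 0.114, 0.114 and 0.400, and Fcer2a and Cr2 were at -1.12 and -0.53. The direction for Ms4a1, Fcrla and Fcmr was thus set by which genes stood for the B cells.

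**Figure D3:**
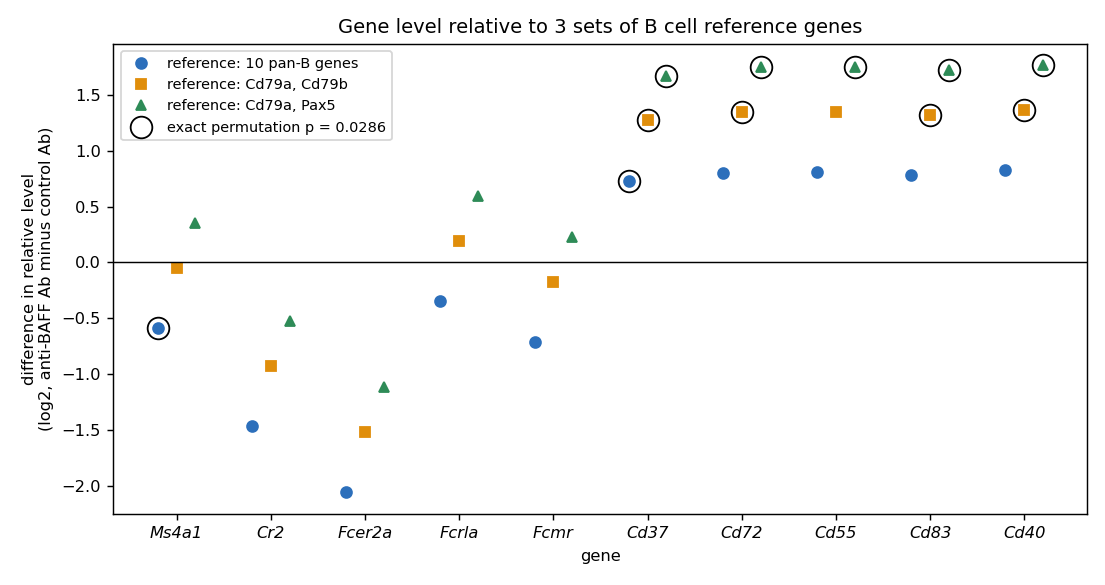
Difference in relative level (log2, anti-BAFF Ab minus control Ab, means of 4 mice) of each gene against 3 sets of reference genes, shown as circles, squares and triangles. Rings mark an exact permutation p of 0.0286, unadjusted, and were not drawn for Cr2 and Fcer2a, which have few counts after anti-BAFF Ab and are shown without a test. Fcer2a and Cr2 lie below 0 for each reference, Cd37, Cd72, Cd55, Cd83 and Cd40 above it, and Ms4a1, Fcrla and Fcmr on either side. The values and rings of Cd37, Cd72, Cd55, Cd83 and Cd40 follow the lower mean of the reference, not a rise of these RNAs.

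The genes with the most similar pattern over the 8 mice were found by the root mean square difference of log2 CPM after centring each gene on its mean. For Ms4a1 these included Pax5 (0.29), Ccr6 (0.38), Tnfrsf13c (0.39) and Cd79a (0.40). For Fcmr they included Cxcr5 (0.34), Pax5 (0.37), Cd79a (0.38) and Pou2af1 (0.39). For Fcrla they were Rab4b (0.21), Ccr6 (0.23), Gm10031 (0.27), the pseudogene Gm7816 (0.28) and Siglecg (0.31). The genes nearest to Fcer2a were farther away and were all immunoglobulin genes, namely Ighv1-26 (0.72), Igkv1-110 (0.74), Iglc2 (0.76), Igkv14-126 (0.77) and Igkv4-68 (0.77). Cr2 was under the mean of 1 CPM required. Cd55 lay nearest to Cd86 (0.10), Tmie, Plat, Prr5l and Fermt2, and Cd83 to Abca5 (0.04), Arhgap24, Ndn, Lzts2 and Lamc1. Cd37 lay nearest to Iars (0.03), Il18bp, Chtf8, Wwp2 and Prkaca, Cd72 to Mrpl15 (0.06), Tmem97, BC048403, Dnajc9 and the pseudogene Gm8494, and Cd40 to Gmeb2 (0.04), Nmd3, Etv3, Urgcp and Nsd3. Likeness over 8 mice, 4 in each group, is a description and carries no test.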

How the data were processed

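Bulk RNA-seq of the SVF of gonadal WAT was analysed for 8 mice, 4 per group, grouped by the treatment and numbered by the mouse number in the labels. The numbers differ between groups, so mice were not paired, and no batch was given. The authors deposited raw counts per gene with coordinates and gene length, an other value in bases, which was used here only to compute FPKM. The submitters' processing notes name the build mm10. The aligner, counter, annotation and strand setting are not given in the sources used here. The labels' age is that at the start of the diet, while the methods give other ages for the mice when obtained.

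The main test was edgeR's (version 4.0.16, R 4.3.3) on genes kept by filterByExpr at a minimum count of 10 (TMM, glmQLFit, glmQLFTest, treatment as the only term), with Benjamini-Hochberg adjustment over 15963 genes. SE values come from the F statistic. The methods' text on RNA-seq uses FPKM and names no test, so limma 3.58.1 on log2(FPKM + 1) and DESeq2 1.42.0 were alternatives, with other scalings (RLE, library size only), other filters, the robust option, a prior count of 0.5 in place of 2 for relative levels, and leaving out each mouse. Relative levels were tested by two-sided exact permutation, by enumerating all divisions of the mice in Python 3.11.15. The pipeline was tested on simulated data. All replicates were distinct libraries (smallest chi-square per degree of freedom 7.32). Promoters came from RefSeq (GRCm38.p6).

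All 10 members were named, as were, per list, up to 3 genes with the smallest p and the direct partners of a member, and the 5 nearest genes of members with a mean of at least 1 CPM. Blnk, Tnfrsf13c and Col15a1 fall outside this rule and were named after their values were seen. The members, lists and tests were chosen with earlier results of these data known. Leaving out mice 2 and 7 together, and the reference of Cd79a and Pax5, were added after seeing the data. A gene of the lists is not reported here by name, though counts and means over the lists include it.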

Additional observations from a re-analysis of the deposited data

Results flagged for a closer look

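Among the 20 sets of 4 mice formed by the 10 genes in both groups, 2 held a mouse far from the other three, where chance gives about 1 in 20. Ms4a1 in control Ab mouse 6, at 6.51 CPM, lay below the other control Ab-treated mice, which were within 7.12 to 7.15 CPM, and still above every anti-BAFF Ab-treated mouse. Cd72 in anti-BAFF Ab mouse 8, at 29.8 CPM, lay above the others of its group, which were at 22.7 to 23.3 CPM, and was matched by control Ab mouse 1.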

How the results depend on the processing

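The number of members lower at an adjusted p of 0.05 was 0 with edgeR and 5 with DESeq2, and the cause was not tested. At an unadjusted p of 0.05 it was 5, but 3 when at least 10 counts were required in every mouse, since Cr2 and Fcer2a were then not tested. Other scalings, no filter, the robust option and limma on log2(FPKM + 1) left the unadjusted count at 5 and the adjusted count at 0. Over all alternatives the adjusted p ranged from that of DESeq2 to 1 for each of the 5 genes that were lower. Their log2 fold changes kept their direction throughout, but log2(FPKM + 1), which understates the change of low genes, gave -0.17 for Cr2, -0.64 for Fcer2a, -0.54 for Ms4a1, -0.86 for Fcmr and -0.74 for Fcrla. A prior count of 0.5 moved the relative level of Fcer2a to -2.79 and of Cr2 to -2.01. Leaving out 1 mouse changed the sign for the genes near 0, with ranges of -0.069 to 0.059 for Cd37, -0.048 to 0.18 for Cd72, -0.13 to 0.32 for Cd55, -0.11 to 0.13 for Cd83 and -0.0024 to 0.19 for Cd40. Without mice 2 and 7, Cd37 was at 0.0075. The relative level reversed for Ms4a1 (0.36), Fcrla (0.60) and Fcmr (0.22) with Cd79a and Pax5, and for Fcrla (0.19) with Cd79a and Cd79b. Depth limits Cr2 and Fcer2a, which had 12 and 18 counts in the anti-BAFF Ab group. No paired analysis was possible because the mouse numbers differ between the groups.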
